A study of Homo sapiens with 4 samples.

Results

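The 6 genes described here are 2 nuclear long noncoding RNAs, NEAT1 and MALAT1, the proteins NONO, SFPQ and PSPC1, and the arginine methyltransferase CARM1. They were chosen by name as paraspeckle RNAs, proteins or regulators and matched from symbol to Ensembl identifier, and all 6 were found among the 67008 genes of the table. RNA-sequencing compared 2 libraries of control cells carrying an shRNA against luciferase (Ctrl) with 2 libraries of cells carrying an shRNA against STAU1 (shSTAU1). Both groups were virally infected cultures of genotype WT, grown as SAS cells, a human oral squamous carcinoma line. The labels also name the mouse fibroblast line C3H 10T1/2 beside the organism Homo sapiens. The table uses human gene identifiers throughout, and the squamous keratin KRT5 lay between 3236 and 5488 CPM (CPM are counts divided by the TMM-scaled library size and set to a common total) in the 4 libraries. Each group carries a single shRNA, and no source used here says when the cells were collected after infection. Nothing states that the libraries of a group came from separate cultures, so the p-values measure the spread between these libraries, which may be technical.

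Paraspeckles are nuclear bodies built on the long form of NEAT1. NONO, SFPQ and PSPC1 belong to the DBHS family (Drosophila behaviour, human splicing), which bind RNA as dimers and coat that scaffold. Paraspeckles retain RNAs in the nucleus, among them mRNAs whose ends hold inverted Alu repeats that fold into duplexes. STAU1 binds the same kind of duplex and is known to favour the export and translation of such mRNAs, and CARM1 methylates NONO and weakens its hold on them. MALAT1 lies next to NEAT1 on chromosome 11 and resides in nuclear speckles.

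The sequences at the ends of the 2 RNAs are shown first. NEAT1 and MALAT1 both end in a genome-encoded A-rich tract that folds back on a U-rich stretch and takes the place of a poly(A) tail. The last 60 bases of the long NEAT1 transcript (chr11:65445481-65445540) and the 90 bases that end at the A-rich tract of MALAT1 (chr11:65506027-65506116) are given below, both on the plus strand of GRCh38 in GENCODE 29. The capitals mark the 2 longest words shared by both ends, of 16 and 11 bases.
NEAT1 long form: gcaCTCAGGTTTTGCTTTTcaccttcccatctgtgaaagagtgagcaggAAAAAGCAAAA
MALAT1: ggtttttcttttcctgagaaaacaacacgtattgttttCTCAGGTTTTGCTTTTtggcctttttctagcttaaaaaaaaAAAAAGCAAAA

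The short form of NEAT1 instead ends at an ordinary poly(A) signal inside the long form. This signal starts at base 3706 of the 22743 bases of the long transcript, and it is capitalised in the window from chr11:65426481-65426530 on the plus strand.
NEAT1 short form: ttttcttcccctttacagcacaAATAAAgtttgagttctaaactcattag

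Counts per gene do not separate the 2 forms of NEAT1, which share these first bases, so the values below are their sum. The library kit (TruSeq RNA Exome) enriches coding transcripts with probes, and the probes for NEAT1 and MALAT1 are not given in the sources used here. A level of either RNA therefore compares libraries, and its relation to a coding gene's level also depends on the capture.

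The targeted gene was examined first. STAU1 had 249 and 251 CPM in the Ctrl libraries and 41.6 and 41.5 CPM in the shSTAU1 libraries, 16.6% of the control level (log2 fold change -2.59 with a standard error of 0.13, edgeR adjusted p = 0.00103). Library totals ran from 32206655 to 36301574 counts. Of 14303 genes with enough counts to be tested, 372 (2.60%) had an adjusted p under 0.05 in edgeR's quasi-likelihood test with Benjamini-Hochberg adjustment, the test behind each adjusted p below. Of these, 161 were higher and 211 lower in shSTAU1, against 132 and 272 when the counts were scaled by library size alone and 137 and 270 with upper quartile scaling.

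None of the 6 genes passed that threshold in edgeR's fit on group alone, and none did with DESeq2 or limma-voom. With the replicate number as a block in edgeR, 4 passed (NEAT1, MALAT1, NONO and CARM1), beside 4087 of 14303 tested genes. What that number marks is not stated in the sources used here. An unadjusted p under 0.05 was found for 3 of the 6 genes in edgeR (MALAT1, NONO and CARM1), 2 with DESeq2 and 3 with limma-voom, beside 24.5% of all tested genes in edgeR. The 2 groups did not overlap for the same 3 genes, lower in shSTAU1 for MALAT1 and higher for NONO and CARM1. This was the case for 56.6% of all tested genes, 28.5% higher and 28.0% lower. All 6 genes passed the filter on low counts.

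**Figure D1:**
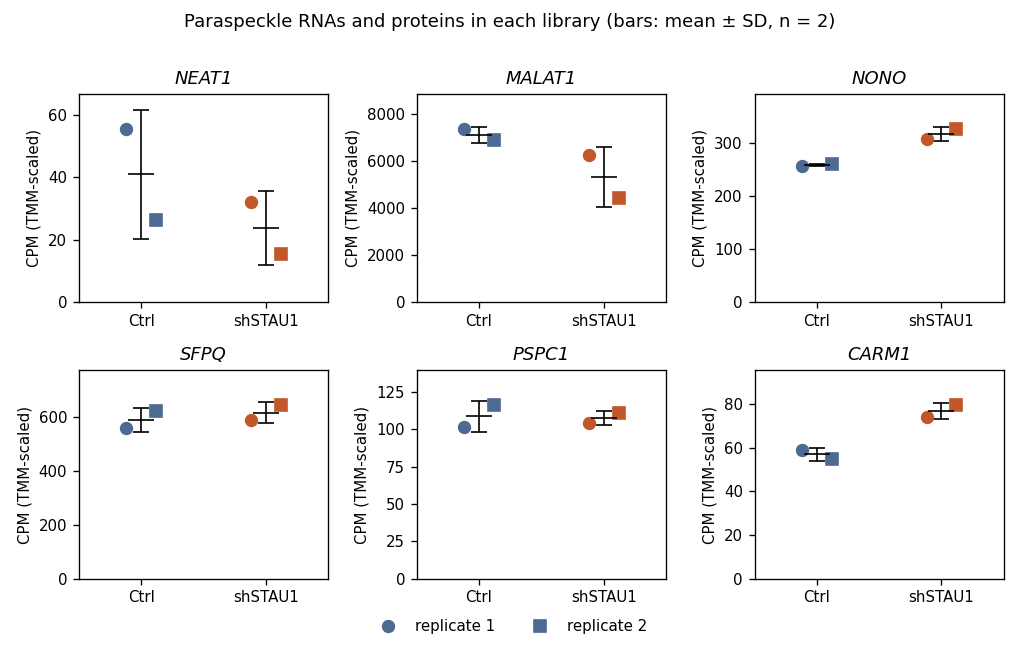
TMM-scaled CPM (vertical axes, from 0) of the 6 genes in the 2 Ctrl (blue) and 2 shSTAU1 (orange) libraries, with circles for replicate 1, squares for replicate 2, and bars for the mean ± SD (n = 2). NEAT1 ranges from 15.5 to 55.5 CPM with the groups overlapping, while the shSTAU1 points lie below the Ctrl points for MALAT1 and above them for NONO and CARM1.

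NEAT1 (ENSG00000245532) spans positions 65422774 to 65445540 of chromosome 11 (GRCh38, plus strand) and is annotated as a long intergenic noncoding RNA. It is the scaffold without which paraspeckles do not form. Its counts were 1865 and 864 in Ctrl and 1123 and 548 in shSTAU1. After scaling these were 55.5 and 26.4 CPM in Ctrl, a mean of 40.9 ± 20.6 (SD, n = 2), and 32.3 and 15.5 CPM in shSTAU1, a mean of 23.9 ± 11.8 (SD, n = 2). The groups overlapped, because the higher shSTAU1 library lay between the 2 Ctrl libraries. The log2 fold change was -0.78 (standard error 0.41, 95% confidence interval -1.73 to 0.18, edgeR adjusted p = 0.284). In this fit on group alone the interval spans from 0.30 to 1.13 of the control level. Replicate 2 lay below replicate 1 in both groups, by 1.07 on the log2 scale in Ctrl and by 1.05 in shSTAU1. The mean of these 2 gaps was larger than that of 94.7% of the tested genes. Leaving out 1 library moved the value, and it also left the replicate numbers unbalanced between the groups. Without Ctrl replicate 1 the log2 fold change was -0.15, without Ctrl replicate 2 it was -1.21, and without shSTAU1 replicate 2 it was -0.35. It reached -1.39 without shSTAU1 replicate 1. Each of these fits assumed that the lone library of a group varied like those of the other group. With the replicate number as a block, the log2 fold change was -0.77 (edgeR adjusted p = 1.923e-06), in a fit where 4087 of 14303 tested genes passed. No source used here says what the replicate number marks.

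MALAT1 (ENSG00000251562), also on the plus strand of chromosome 11, from 65497688 to 65506516, is an abundant RNA of nuclear speckles, the stores of splicing factors. It took 0.749% and 0.698% of all counts in the Ctrl libraries and 0.616% and 0.432% in the shSTAU1 libraries, and its mean CPM was above that of 99.97% of the tested genes. It had 7351 and 6862 CPM in Ctrl, a mean of 7106 ± 346 (SD, n = 2). In shSTAU1 it had 6230 and 4433 CPM, a mean of 5331 ± 1270.5 (SD, n = 2). Both shSTAU1 libraries lay below both Ctrl libraries, and replicate 2 lay furthest below. The log2 fold change was -0.41 (standard error 0.17, 95% confidence interval -0.81 to -0.02, unadjusted p = 0.0424), and it did not pass the correction (edgeR adjusted p = 0.187). The size rested on the shSTAU1 libraries. It was -0.20 without shSTAU1 replicate 2 and -0.67 without shSTAU1 replicate 1.

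Per kilobase of merged exons, MALAT1 stood far above NEAT1 in every library. The ratio of their levels was 342 and 671 in Ctrl and 498 and 737 in shSTAU1 when the whole length of NEAT1 was used. If all NEAT1 reads came from the short form (3740 bases of genome), the ratio would be 56.1 and 110.1 in Ctrl and 81.8 and 121 in shSTAU1. The ratio overlapped between the groups on either length and followed NEAT1, which varied more between libraries than MALAT1.

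Other long noncoding genes were set beside the 2 RNAs. Of 472 tested long noncoding genes other than these 2, 74.6% had a log2 fold change below 0, with a median of -0.46 and middle values (25th to 75th percentile) from -0.90 to 0.01. The 11971 tested protein-coding genes had a median of 0.03. MALAT1 lay close to the median of the noncoding genes, with 53.2% of them lower still, and 29.2% were lower than NEAT1. Among the 472, 1 gene was higher and 4 were lower at an adjusted p under 0.05, beside 1.13% and 1.48% of all tested genes. For the 18 noncoding genes that averaged 10 CPM or more the median was -0.13, and 7 of them were lower than MALAT1 and 1 was lower than NEAT1.

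**Figure D2:**
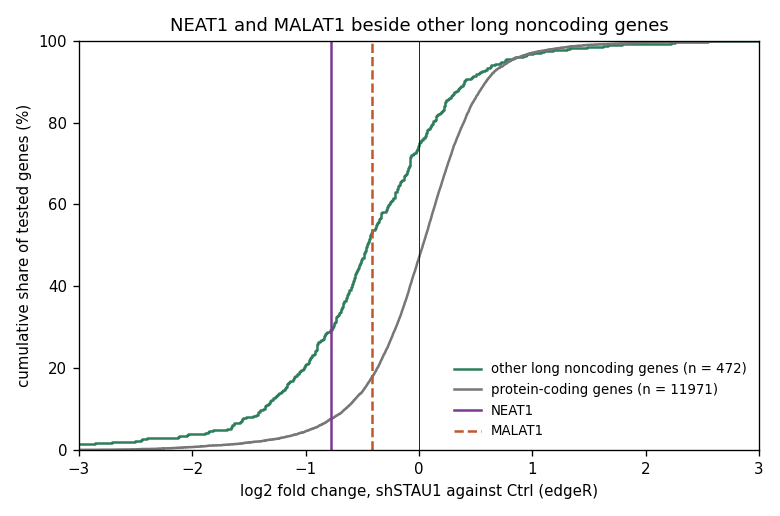
Cumulative share of tested genes (vertical axis, %) against the log2 fold change of shSTAU1 against Ctrl (horizontal axis, shown from -3 to 3) for 472 other long noncoding genes (green) and 11971 protein-coding genes (grey). Vertical lines mark NEAT1 at -0.78 and MALAT1 at -0.41, and the noncoding curve is shifted to lower values, with a median of -0.46.

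The pooled counts of this class were also lower in shSTAU1 as a share of the libraries. Long noncoding genes other than NEAT1 and MALAT1 took 0.643% and 0.628% of the counts in Ctrl and 0.427% and 0.368% in shSTAU1. Transcripts of the mitochondrial genome took 3.43% and 3.26% in Ctrl and 2.80% and 2.25% in shSTAU1, while protein-coding genes took 93.3% and 93.4% in Ctrl and 94.4% and 95.2% in shSTAU1. The part that this shift in library make-up has in the values of NEAT1 and MALAT1 was not tested. In bulk RNA, fewer cells with a transcript and less of it per cell cannot be told apart.

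**Figure D3:**
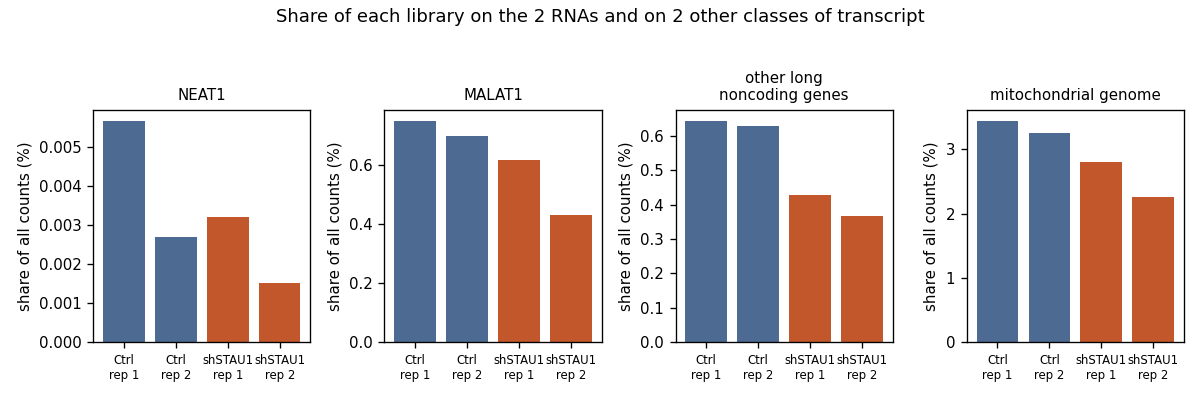
Share of all counts (vertical axes, %, from 0) taken in each of the 4 libraries by NEAT1, MALAT1, the other long noncoding genes and the mitochondrial genome, with Ctrl in blue and shSTAU1 in orange. The lowest share is that of shSTAU1 replicate 2 in all 4 panels, and only NEAT1 overlaps between the groups.

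Of 8 other well known long noncoding RNAs, 7 were tested, 6 had a log2 fold change below 0, and the median was -0.54. None passed the threshold in edgeR, DESeq2 or limma-voom, beside 2.60%, 10.1% and 2.54% of all tested genes. An unadjusted p under 0.05 in edgeR was found for 0 of them, beside 24.5% of all tested genes. PVT1, which shares the MYC locus, had 10.8 and 7.12 CPM in Ctrl and 7.73 and 4.58 CPM in shSTAU1 (log2 fold change of -0.54). Leaving out single libraries moved PVT1 between -0.96, without shSTAU1 replicate 1, and -0.22, without Ctrl replicate 1. NORAD, a cytoplasmic RNA that binds Pumilio proteins, had a log2 fold change of 0.22, KCNQ1OT1, an imprinted antisense RNA, had -0.75, and JPX, from the X-inactivation centre, had -0.89. JPX and KCNQ1OT1 rest on at most 90 counts in a library. Reads of KCNQ1OT1 cannot be told apart from those of its host gene where strand was not counted.

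The profiles most like those of the 2 RNAs were found by the distance between centred log2 CPM values over the 4 libraries, among the 7775 genes averaging 10 CPM or more. SCD, a fatty acid desaturase, was nearest to NEAT1 (distance 0.089) with 374 and 194 CPM in Ctrl and 226 and 110 CPM in shSTAU1. NFE2L3, a transcription factor (distance 0.15), and IL1A, an inflammatory cytokine (distance 0.17), came next. Nearest to MALAT1 were SPINT1, a serine protease inhibitor (distance 0.050), GAS8, a ciliary protein (distance 0.058), and LRSAM1, a ubiquitin ligase (distance 0.061). All 6 of these genes are protein-coding, their distances rest on 4 libraries, and none passed the threshold in edgeR (adjusted p from 0.187 to 0.304).

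The genes around NEAT1 and MALAT1 on chromosome 11 did not share a direction. Of 8 listed neighbours, 5 were tested, 3 above 0 and 2 below, with a median log2 fold change of 0.22. None passed the threshold in edgeR, DESeq2 or limma-voom, beside 2.60%, 10.1% and 2.54% of all tested genes. Only 1, EHBP1L1, had an unadjusted p under 0.05 in edgeR, beside 24.5% of all tested genes. EHBP1L1, a membrane traffic adaptor, had 70.0 and 57.2 CPM in Ctrl and 107 and 71.6 CPM in shSTAU1 (log2 fold change 0.49 with a standard error of 0.21, edgeR adjusted p = 0.204). Its log2 fold change was 0.18 without shSTAU1 replicate 1 and 0.73 without shSTAU1 replicate 2. ZNRD2 had a log2 fold change of 0.22. LTBP3, a binding protein of latent TGF-beta, had -0.23, or -0.49 without shSTAU1 replicate 1 and -0.0089 without shSTAU1 replicate 2. FRMD8, which stabilises a protease regulator, had -0.086. MALAT1's antisense transcript TALAM1 was not analysed here, and with the strand setting unknown its reads cannot be told apart from those of MALAT1.

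NONO (ENSG00000147140), the DBHS protein that binds and retains duplex-bearing mRNAs, lies on chromosome X from 71283192 to 71301168 on the plus strand. It had 256 and 259 CPM in Ctrl, a mean of 258 ± 2.18 (SD, n = 2), and 307 and 326 CPM in shSTAU1, a mean of 316 ± 13.5 (SD, n = 2). Both shSTAU1 libraries lay above both Ctrl libraries, and the gap between the groups was larger than the gaps within them. The log2 fold change was 0.30 (standard error 0.12, 95% confidence interval 0.02 to 0.57, unadjusted p = 0.0396), and it did not pass the correction (edgeR adjusted p = 0.181). Leaving out single libraries moved it between 0.24 and 0.35.

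SFPQ (ENSG00000116560), a splicing and transcription factor that is needed for NEAT1 to accumulate and for paraspeckles to form, lies on chromosome 1 from 35176378 to 35193148 on the minus strand. It had 559.8 and 622 CPM in Ctrl, a mean of 591 ± 44.1 (SD, n = 2), and 589 and 646 CPM in shSTAU1, a mean of 617 ± 40.1 (SD, n = 2). The groups overlapped. The log2 fold change was 0.06 (standard error 0.13, 95% confidence interval -0.23 to 0.36, edgeR adjusted p = 0.794), an interval of 0.85 to 1.28 of the control level.

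PSPC1 (ENSG00000121390), a family member that was found as a component of paraspeckles, lies on chromosome 13 from 19674752 to 19783019 on the minus strand. It had 101 and 116 CPM in Ctrl, a mean of 109 ± 10.4 (SD, n = 2), and 104 and 111 CPM in shSTAU1, a mean of 108 ± 4.40 (SD, n = 2). Both shSTAU1 libraries lay between the Ctrl libraries. The log2 fold change was -0.02 (standard error 0.13, 95% confidence interval -0.33 to 0.30, edgeR adjusted p = 0.952).

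The 3 DBHS transcripts were compared per length, as CPM per kilobase of merged exons. SFPQ was the highest in every library, from 75.4 to 86.9, followed by NONO, from 48.4 to 61.6, and PSPC1, from 21.1 to 24.1, and no 2 of these ranges overlapped. NONO made up 33.4% and 31.2% of the sum of the 3 levels in Ctrl and 36.5% and 35.9% in shSTAU1. The share of SFPQ was 52.1% and 53.4% in Ctrl and 49.9% and 50.7% in shSTAU1, and that of PSPC1 was 14.5% and 15.4% in Ctrl and 13.6% and 13.4% in shSTAU1. The 3 shares add to the whole, so the lower shares of SFPQ and PSPC1 are not separate from the higher share of NONO, and the levels of SFPQ and PSPC1 themselves overlapped between the groups. With 2 libraries in each group, an exact two-sided permutation test of such a share cannot give a p below 0.333. The order of the levels also depends on the exon lengths and on the capture.

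**Figure D4:**
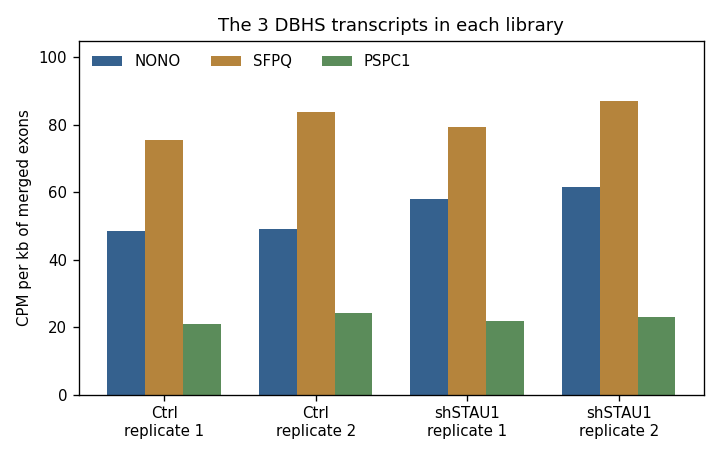
Levels of NONO (blue), SFPQ (brown) and PSPC1 (green) in each library, in CPM per kilobase of merged exons (vertical axis, from 0). NONO stands at 48.4 and 49.0 in Ctrl and at 58.0 and 61.6 in shSTAU1, between SFPQ and PSPC1 in every library.

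CARM1 (ENSG00000142453), the coactivator-associated arginine methyltransferase, lies on chromosome 19 from 10871513 to 10923070 on the plus strand. It had 59.0 and 54.7 CPM in Ctrl, a mean of 56.9 ± 3.08 (SD, n = 2), and 74.1 and 79.5 CPM in shSTAU1, a mean of 76.8 ± 3.76 (SD, n = 2). Both shSTAU1 libraries lay above both Ctrl libraries. The log2 fold change was 0.43 (standard error 0.13, 95% confidence interval 0.12 to 0.75), with the lowest unadjusted p of the 6 genes (0.0129), and it did not pass the correction (edgeR adjusted p = 0.107). Leaving out single libraries moved it between 0.37 and 0.49.

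The other protein arginine methyltransferases were examined as a list of 7 genes, all of them tested. None passed the threshold in edgeR or limma-voom, 2 had an unadjusted p under 0.05 in edgeR, and 1, PRMT1, passed with DESeq2, beside 24.5% and 10.1% of all tested genes. Of the 7, 4 lay above 0 and 3 below, with a median log2 fold change of 0.01, beside 0.006 for all tested genes. PRMT1, which makes most of the asymmetric dimethylarginine of the cell, had 109 and 125 CPM in Ctrl and 152 and 178 CPM in shSTAU1 (log2 fold change 0.49 with a standard error of 0.14, edgeR adjusted p = 0.0934). PRMT5, the main enzyme of symmetric dimethylation, had a log2 fold change of 0.44 (edgeR adjusted p = 0.185). Without shSTAU1 replicate 1, PRMT1 and PRMT5 were at 0.61 and 0.64, and without shSTAU1 replicate 2 they were at 0.36 and 0.21. PRMT3, which modifies a ribosomal protein, had 0.01, or -0.04 when scaled by library size or upper quartile, and PRMT7, a monomethylating enzyme, had -0.17.

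The wider set of paraspeckle proteins was taken as a list of 30 further genes, of which 27 were tested. HNRNPF alone passed the threshold in edgeR, 1 of 27 higher and 0 lower, beside 1.13% of all tested genes higher and 1.48% lower. At an unadjusted p under 0.05, 7 were higher and 1 was lower, beside 12.9% and 11.6% of all tested genes. With DESeq2, 4 of the 27 passed, beside 10.1% of all tested genes, and with limma-voom 2 passed, beside 2.54%. Of the 27 genes, 19 (70.4%) had a log2 fold change above 0, beside 50.4% of all tested genes, and the median was 0.23. The groups did not overlap for 12 genes that were higher and 3 that were lower in shSTAU1, beside 28.5% and 28.0% of all tested genes.

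HNRNPF, an RNA-binding protein of G-rich sequence, rose in shSTAU1. It had 144 and 158 CPM in Ctrl and 250.2 and 262 CPM in shSTAU1 (log2 fold change 0.76 with a standard error of 0.12, edgeR adjusted p = 0.0358). HNRNPF also passed with DESeq2 (adjusted p = 0.0001335) and limma-voom (adjusted p = 0.0358), but not without the filter on low counts (edgeR adjusted p = 0.0989). Leaving out single libraries moved its log2 fold change between 0.69 and 0.83. The most abundant protein of the list was HNRNPA1, a splicing repressor with several processed pseudogenes that can share its reads. It had 1207 and 1265 CPM in Ctrl and 1772 and 1896 CPM in shSTAU1 (log2 fold change 0.57 with a standard error of 0.12, edgeR adjusted p = 0.0522). HNRNPA1 passed with DESeq2 (adjusted p = 0.00465) and limma-voom (adjusted p = 0.043), and its log2 fold change ran from 0.51 to 0.63 with 1 library left out. HNRNPK had a log2 fold change of 0.42, SMARCA4, the ATPase of a chromatin remodelling complex, had 0.23, and UBAP2L, which is also known from stress granules, had 0.27, and none of the 3 passed in edgeR. Without shSTAU1 replicate 1, HNRNPK and UBAP2L were at 0.58 and 0.46, and without shSTAU1 replicate 2 they were at 0.25 and 0.06.

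The choice between the ends of NEAT1 is made by factors of the same list, and NUDT21, CPSF6 and RBM14 were named after their values were seen. NUDT21 and CPSF6, subunits of cleavage factor Im, favour the short form of NEAT1, and HNRNPK favours the long form by interfering with them. NUDT21 had 121 and 110.0 CPM in Ctrl and 161 and 187 CPM in shSTAU1 (log2 fold change 0.59 with a standard error of 0.14, edgeR adjusted p = 0.0646), while CPSF6 had a log2 fold change of -0.055 and overlapping groups. NUDT21 passed with DESeq2 (adjusted p = 0.00977), and its log2 fold change ran from 0.47 to 0.70 with 1 library left out. HNRNPK had 601 and 646 CPM in Ctrl and 745 and 929 CPM in shSTAU1. RBM14, which paraspeckles need to form, had the lowest value of the list, with 40.5 and 48.9 CPM in Ctrl and 24.4 and 36.1 CPM in shSTAU1 (log2 fold change -0.56 with a standard error of 0.21, edgeR adjusted p = 0.161). RBM14 was at -0.88 without shSTAU1 replicate 2 and at -0.30 without shSTAU1 replicate 1. HNRNPR and RUNX3 are listed at 0 counts in all 4 libraries and TAF15 had at most 5 counts, so these 3 were not tested. MATR3 has 2 entries, and the tested one had at most 104 counts in a library. With the counting program and annotation release unknown, such low counts do not show that these genes were not expressed.

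**Figure D5:**
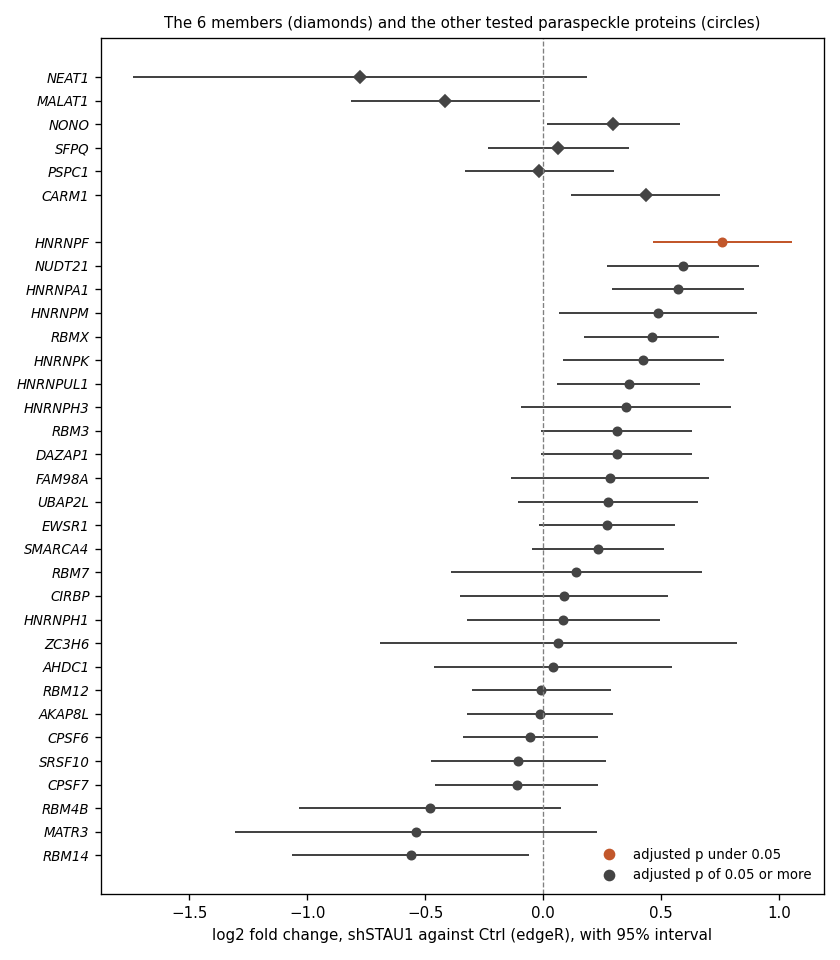
Log2 fold change of shSTAU1 against Ctrl with its 95% confidence interval from edgeR (horizontal axis) for the 6 genes (diamonds) and the 27 other tested paraspeckle proteins (circles, sorted). HNRNPF, at 0.76, is coloured as the gene with an adjusted p under 0.05, and the interval of NEAT1 is the widest of the 6, from -1.73 to 0.18.

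Processing factors and the speckle scaffold of MALAT1 formed a list of 7 genes, all tested. None passed the threshold in edgeR, DESeq2 or limma-voom, beside 2.60%, 10.1% and 2.54% of all tested genes. In edgeR 0 had an unadjusted p under 0.05, beside 24.5% of all tested genes, and the median log2 fold change was 0.05. SRRM2 and SON, the scaffold proteins of nuclear speckles, had log2 fold changes of 0.05 and -0.14, and that of SRRM2 fell just below 0 when scaled by library size or upper quartile. ELAC2, the RNase Z that trims the tRNA-like RNA cut from MALAT1, had 0.10, and POP1, a subunit of the RNase P that makes the cut, had -0.03.

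Of 5 mRNAs known for inverted Alu repeats in their ends, 3 were tested, and all 3 lay above 0 with a median log2 fold change of 0.44. Among all tested genes 50.4% lay above 0, and the median was 0.006. In edgeR 1 of the 3 passed the threshold, beside 1.13% of all tested genes called higher. With 3 genes, a change of such mRNAs as a class was not tested. PAICS, an enzyme of purine synthesis, rose in shSTAU1 from 158 and 156 CPM in Ctrl to 233 and 280 CPM (log2 fold change 0.71 with a standard error of 0.14, edgeR adjusted p = 0.0446). PAICS also passed with DESeq2 (adjusted p = 0.00102) and limma-voom (adjusted p = 0.046), but not without the filter on low counts (edgeR adjusted p = 0.119). Leaving out single libraries moved its log2 fold change between 0.56 and 0.84. BPNT1, a nucleotidase, had 22.5 and 21.2 CPM in Ctrl and 28.2 and 31.0 CPM in shSTAU1 (log2 fold change of 0.44, edgeR adjusted p = 0.144). XIAP, an inhibitor of apoptosis, had a log2 fold change of 0.08. NICN1 is listed at 0 counts in all 4 libraries, which does not show that it was not expressed, and LIN28A had at most 10 counts. The table counts probe-captured RNA per gene, with nucleus and cytoplasm not separated, so retention in the nucleus and the number of paraspeckles were not measured.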

How the data were processed

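The authors deposited whole-number counts per gene without normalization. The submitters' processing notes name Partek and the build hg38. The aligner, counting program, strand setting and annotation release are not given in the sources used here. Every library column was mapped to a sample by its description. Totals of 32206655 to 36301574 counts limit only genes of few counts.

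The tests were run with edgeR 4.0.16 under R 4.3.3: filterByExpr, TMM scaling, the quasi-likelihood test on group alone, and Benjamini-Hochberg adjustment over all 14303 tested genes at a threshold of 0.05. Intervals are 95% intervals from that fit. The counts of a group's libraries were not duplicates of each other (chi-square over its degrees of freedom of 23.4 for Ctrl and 56.4 for shSTAU1), which does not show that they are biological replicates. Alternatives were DESeq2 1.42.0, limma-voom (limma 3.58.1), 2 other scalings, no filter, the replicate number as a block, other thresholds and each library left out. The scripts were tested on simulated data.

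Positions, gene types, exon lengths and sequences are from GENCODE 29 on GRCh38, which may not be the authors' release. The genes and lists were chosen with earlier results of these data known. Beside the 6 genes, list members past the threshold and the 4 with the highest mean CPM of each list are named, and the 3 nearest profiles to NEAT1 and to MALAT1. Some genes are not reported here.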

Additional observations from a re-analysis of the deposited data

How the results depend on the processing

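With all 4 libraries and no block, the 6 genes kept their direction and did not pass the threshold in any alternative run. Their log2 fold changes ran from -0.83 to -0.78 for NEAT1, -0.46 to -0.41 for MALAT1, 0.24 to 0.30 for NONO, 0.01 to 0.06 for SFPQ, -0.069 to -0.014 for PSPC1 and 0.38 to 0.43 for CARM1. All genes past the threshold numbered 1449 with DESeq2, 11 without a filter (3582 at an unadjusted p under 0.05, all in edgeR), 1585 at an adjusted p under 0.10 and 2098 by a 1.5-fold criterion with unadjusted p under 0.05, against 372. The further paraspeckle proteins had 4 calls with DESeq2 and at 0.10, 2 with limma-voom and with the fold criterion, and 0 without a filter, against 1. The arginine methyltransferases had 1 with DESeq2 and at 0.10, and the mRNAs with inverted Alu repeats had 0 without a filter. The cause was not tested.

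The groups share replicate numbers, which the library names also carry as their first digit, but no source used here says what a number marks, and deviations from the group means correlated at 0.27 within a number. Fitted with a replicate block, the data gave 4087 of the 14303 tested genes past the threshold. Of the 6 genes, 4 did, NEAT1 at -0.77 (adjusted p = 1.923e-06), MALAT1 at -0.43 (0.000274), NONO at 0.30 (0.0308) and CARM1 at 0.43 (0.003), all from edgeR. Under the block the further paraspeckle proteins had 11 calls among 27 tested genes, and the arginine methyltransferases had 2 among 7. The mRNAs with inverted Alu repeats had 2 among 3, and the other long noncoding RNAs had 1 among 7. Of the 5 tested neighbours of NEAT1 and MALAT1, 1 was called (EHBP1L1). These counts stand beside the 4087 of 14303 for all tested genes.

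With 1 library left out, the lone library of its group was assumed to vary like the others. The count of genes ran from 0 (without Ctrl replicate 1, where STAU1 did not pass either and 1502 genes had an unadjusted p under 0.05 in edgeR, the 1 tool run there) to 2780. Log2 fold changes ran from -1.39 to -0.15 for NEAT1, -0.67 to -0.20 for MALAT1, 0.37 to 0.49 for CARM1, -0.016 to 0.15 for SFPQ and -0.11 to 0.089 for PSPC1. Calls ran from 0 to 9 for the further paraspeckle proteins, 0 to 2 for the methyltransferases, and 0 to 1 for the other 4 lists. Values near 0 changed sign. SRRM2 was -0.0065 with library size only and -0.0059 with upper quartile scaling, and PRMT3 was -0.041 and -0.040. With 1 library left out, ELAC2 ran from -0.10 to 0.32, POP1 from -0.24 to 0.21, FRMD8 from -0.33 to 0.12, SRRM2 from -0.041 to 0.14 and PRMT3 from -0.12 to 0.13.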
